A study of Mus musculus with 2 samples.

Results

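CD8 memory T cells with Ccl5 are described here, a population of 492 cells among 15278 spleen T cells. A cell was counted as a member when it held at least 1 molecule of Cd8b1, which encodes the CD8 beta chain, and at least 2 molecules of Ccl5, a chemokine that memory CD8 T cells keep in store. It also had to hold no molecule of Cd4, Foxp3 or Trdc, which mark helper, regulatory and gamma delta T cells. The saline pool gave 148 members, the 4 h pool 170 and the 8 h pool 174. They formed 8.99% of the 5472 T cells that met the same rule without the Ccl5 condition, called CD8 T cells below.

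Mature CD8 T cells kill infected or altered cells and release cytokines. Naive cells circulate through spleen and lymph nodes with homing receptors such as CCR7, while central memory cells keep such receptors and add CD44, the interleukin 2 and 15 receptor beta chain (Il2rb), Ly6C and the transcription factor Eomes. Effector cells and effector memory cells lose lymph node homing, patrol blood, red pulp and tissues, and carry granzymes and perforin ready for release.

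The data came from female mice, C57/BL6N by the strain label, that received remimazolam at 6 mg/kg or saline. Remimazolam is a short-acting benzodiazepine sedative that acts on the GABA type A receptor. The groups were saline, labelled as 0 h, and remimazolam at 4 h and at 8 h, with 3 mice in each. The spleen cells of the 3 mice of a group carried one sample tag, an antibody-linked barcode that marks the origin of a cell, and all cells were sequenced together on a BD Rhapsody platform. The labels describe the sorted cells as CD45+CD3+CD5+ in one place and as CD45+ in another. Saline mice at the later times are not part of the design as labelled, so the drug and the time since injection cannot be told apart.

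Each treatment is 1 pool, and the mice within a pool cannot be told apart, so there is no replicate check and no test between treatments. Shares of cells are given with exact Clopper-Pearson 95% intervals. Ratios of molecule counts scaled to an equal total (CPM) are given with exact 95% intervals from the binomial distribution of the molecules between the pools compared. All intervals cover counting error only, and cells of 1 pool are not replicates. Fewer cells of a type and less RNA per cell cannot be told apart in a summed level.

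The 3 pools were alike in depth. T cells numbered 5013 to 5133 per pool with a median of 2529 to 2548 molecules. The members gave 554107 molecules in the saline pool, 670543 in the 4 h pool and 635975 in the 8 h pool. Their median was 3706, 3656.5 and 3548.5 molecules per cell in that order, against 2703, 2708 and 2689 in CD8 T cells without Ccl5. The mitochondrial share was 10.0% to 10.3%. A further 41 cells that met the rest of the rule were left out as tag multiplets. As a measure of free RNA, 0 of 369 B cells held 2 Ccl5 molecules, which allows a share of up to 0.813% by a limit of 3 counts and up to 0.995% by the exact interval, and 7 of 1825 CD4 T cells of naive type did so (0.384%), at median depths of 2221 and 2570 molecules.

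Of the labelled markers outside the rule, Ly6c2 and Il2rb were detected in most members, and Eomes in 47.4%. Ly6c2, which encodes the Ly6C antigen of memory CD8 T cells, was detected in 89.8% of members and in 27.8% of the 4789 CD8 T cells without Ccl5. Il2rb, which passes interleukin 15 signals that keep memory cells alive, was detected in 88.6% of members against 31.6%. Eomes, a T-box factor of central memory, was detected in 47.4% against 12.1%. These genes lie on chromosomes 15, 15 and 9, at 75108158 to 75111970 for Ly6c2, 78479256 to 78495271 for Il2rb and 118478212 to 118486132 for Eomes (GRCm38). Ccl5 lies on chromosome 11 at 83525778 to 83530518, and Cd8b1 on chromosome 6 at 71322788 to 71337494. Members were deeper than the other CD8 T cells, and with every cell thinned to 1000 molecules Ly6c2 was detected in 78.6% of members against 18.6%, Il2rb in 52.1% against 14.1% and Eomes in 19.6% against 5.42%. The cells were chosen on Ccl5, so the contrast is a description. In B cells Ly6c2 was detected in 2.44%, Il2rb in 0.813% and Eomes in 0 of 369 cells. Cd8b1, of which 1 molecule meets the rule, was detected in 13 of these B cells (3.52%). Whether stray Cd8b1 molecules brought other cells with Ccl5 into the members was not tested.

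**Figure D1:**
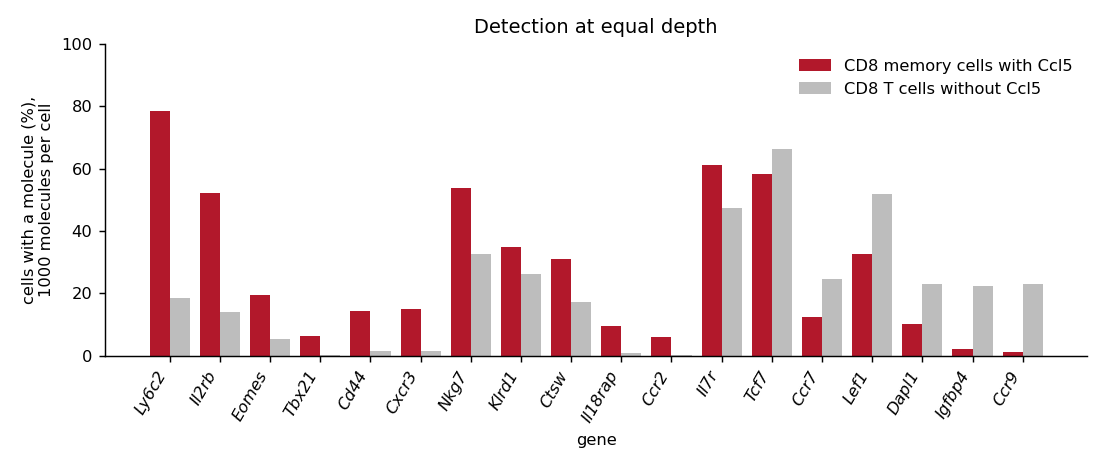
Share of cells with at least 1 molecule of each gene (y axis, percent; x axis, gene) after every cell was thinned to 1000 molecules, in members (red) and CD8 T cells without Ccl5 (grey), all pools together. Ly6c2 was detected in 78.6% against 18.6% and Il2rb in 52.1% against 14.1%, while Lef1 stood at 32.6% against 51.8%.

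Most members carried memory genes in combination. Ly6c2 and Il2rb were found together in 80.7% of members and in 12.2% of CD8 T cells without Ccl5. Il7r, the interleukin 7 receptor of long-lived T cells, was detected in 84.8% against 68.3%. Only 10 of 492 members lacked all of Ly6c2, Il2rb and Eomes, against 49.8% of CD8 T cells without Ccl5. In the pools, 52.7% of saline, 57.1% of 4 h and 62.1% of 8 h members held Eomes or its relative Tbx21.

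The minimum of 2 molecules lay within a gradient. The 191 CD8 T cells with exactly 1 Ccl5 molecule, just outside the rule, held Ly6c2 in 75.9%, Il2rb in 52.9% and Eomes in 36.6% of cells. The 77 members with exactly 2, just inside it, held them in 90.9%, 79.2% and 42.9%. At the other end, the 83 members with 20 or more Ccl5 molecules held Id2, a factor of effector differentiation, in 56.6% of cells, against 15.6% in members with 2. Id2 did not rise steadily with Ccl5. It was detected in 29.2% of CD8 T cells without Ccl5. In members it was detected in 24.2% with 3 to 4 molecules, 19.8% with 5 to 9 and 30.4% with 10 to 19. The Ccl5 count per member ran from 2 to 95.

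Against CD8 T cells without Ccl5, the genes with the largest CPM ratios included natural killer receptors and granzymes. The ratio was 146 for Klre1 and 95 for Klrc2, both receptors of the natural killer gene complex, 140 for Gzma (granzyme A) and 85 for Cx3cr1, the fractalkine receptor. Klra6 and Klra7, of the Ly49 family that reads major histocompatibility complex class I, stood at 96 and 65. Gzmm (granzyme M) stood at 38.3 (24.6 to 62.0). Cd163l1 at 61.5 and Tcrg-C2 at 38.3, both on the list of gamma delta T cell markers, and Osbpl3 at 41.6 and Dmrta1 at 28.7 lay in the same range. They were followed by the inflammatory chemokine receptor Ccr2 at 17.2, with others between. Tbx21, which drives effector genes, stood at 13.2 (9.90 to 17.6), Il18rap, a chain of the interleukin 18 receptor, at 12.6, and Cxcr3, a receptor for interferon-induced chemokines, at 8.17. Lower in members were Ccr9, a gut and thymus homing receptor, at 0.0528, Igfbp4 at 0.0888, and Itgae, which encodes the integrin CD103, at 0.162. Lef1, a factor of naive T cells, stood at 0.538 (0.50 to 0.579) and Ccr7 at 0.566 (0.501 to 0.639). Of 5274 genes with at least 50 molecules in members, 127 had a level at least 2-fold higher and 17 a level at least 2-fold lower than in CD8 T cells without Ccl5. Another population with Ccl5 is the 553 T cells with at least 2 Ccl5 molecules and no Cd8b1 or Foxp3. For members over these cells, the ratio was 0.382 for Klre1, 0.367 for Klrc2, 0.646 for Klra6 and 0.634 for Klra7. It was 0.571 for Ccr2, 0.592 for Tbx21 and 0.0957 for Tcrg-C2. It was 1.21 for Gzma, 1.33 for Cx3cr1, 4.66 for Cd163l1 and 7.82 for Gzmm. The natural killer receptors named here were thus not particular to the members. The rule chose on Ccl5, so these values describe the members and test nothing.

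The Ly49 receptors split the members. At least 1 of 7 Klra genes was detected in 141 of 492 members (28.7%) and in 40 of 4789 CD8 T cells without Ccl5 (0.835%), and 59 members held at least 2 of these genes. The share was 29.7% in saline, 27.1% in 4 h and 29.3% in 8 h members. Klra6 was detected in 12.6% of members and 16.1% of the T cells with Ccl5 and no Cd8b1, and Klra7 in 15.9% and 17.2%. Near-identical copies such as the Klra genes, or Ly6c1 and Ly6c2, can exchange reads, so values of single members of these families are uncertain.

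Members made up much the same part of the T cells in each pool. They were 148 of 5013 T cells in the saline pool (2.95%, 2.50 to 3.46), 170 of 5133 in the 4 h pool (3.31%, 2.84 to 3.84) and 174 of 5132 in the 8 h pool (3.39%, 2.91 to 3.92). The ratio of shares was 1.12 (0.895 to 1.41) for 4 h over saline and 1.15 (0.917 to 1.44) for 8 h over saline. The intervals all overlapped, so no difference was detectable at this number of cells. Among CD8 T cells the shares were 8.26% in saline, 8.97% at 4 h and 9.75% at 8 h. With likely doublets left out, the 4 h share of T cells was 2.88%, against 3.0% in the saline pool, so the direction at 4 h turned. That setting dropped 33 of 170 members at 4 h.

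**Figure D2:**
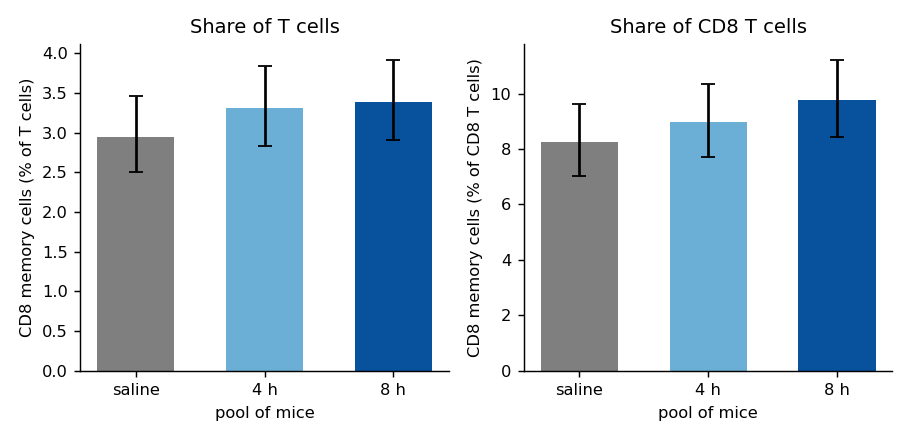
Members as a percent of T cells (left) and of CD8 T cells (right) in the saline, 4 h and 8 h pools (x axis); bars are shares and lines exact 95% counting intervals. The shares of T cells were 2.95%, 3.31% and 3.39%, and the intervals overlap in both panels.

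Within the members, a small set of cells held several effector genes together. They were picked, after values had been seen, as members with at least 2 of 6 genes of short-lived effector and effector memory CD8 T cells. The genes are Klrg1, an inhibitory receptor for cadherins, Cx3cr1, S1pr5, a receptor that guides exit into blood, Zeb2, a factor of terminal effector differentiation, and Gzma and Gzmb, the granzymes. The set held 27 of 492 members (5.49%) and 641 of 658 molecules of the 6 genes in all members (97.4%). That included 417 of 423 Gzma molecules, 89 of 91 Gzmb molecules and all 58 Cx3cr1 and all 27 Klrg1 molecules. The cells were chosen on these same genes, and any other member could hold at most 1 of them. The concentration thus follows in large part from the choice and is no sign of a separate kind of cell. In CD8 T cells without Ccl5, 1 of 4789 cells met the same criterion.

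The start regions of the 2 granzyme genes are shown as examples of the set, since these genes held the most molecules among the 6. Each runs from 250 bases before to 50 bases after the gene's start, from RefSeq (GRCm38.p6), on the minus strand: Gzma at chr13:113100932-113101231 and Gzmb at chr14:56262285-56262584. Capitals mark matches to the core of RUNX factors, TGTGGT or its other-strand form ACCACA, where RUNX3 is the family member known from killer T cells. Of 32851 mouse promoters of the same length, 16.8% held at least 1 such match. A match is a description of the letters and no measured binding.
Gzma: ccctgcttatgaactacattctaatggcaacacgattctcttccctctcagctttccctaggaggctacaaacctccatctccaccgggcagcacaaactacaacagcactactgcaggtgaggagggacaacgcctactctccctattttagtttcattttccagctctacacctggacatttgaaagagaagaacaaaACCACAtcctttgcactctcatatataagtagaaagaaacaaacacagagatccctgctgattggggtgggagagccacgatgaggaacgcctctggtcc
Gzmb: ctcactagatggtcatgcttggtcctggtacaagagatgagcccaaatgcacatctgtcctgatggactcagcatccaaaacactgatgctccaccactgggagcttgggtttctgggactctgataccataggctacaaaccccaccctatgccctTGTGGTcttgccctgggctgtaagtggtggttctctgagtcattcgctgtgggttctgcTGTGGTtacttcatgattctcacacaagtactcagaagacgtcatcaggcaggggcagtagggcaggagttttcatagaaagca
The Gzma region held 1 match and the Gzmb region 2. Of the other genes of the set, the Cx3cr1 region held 1, the S1pr5 region 0 and the 4 start regions of Zeb2 0. The T-box core, AGGTGT or ACACCT, was found in 13.7% of the promoters, and among the searched genes of the set in the Gzma region only. No start region of Klrg1 was available, so Klrg1 was not searched for either core. Runx3 itself was detected in 53.5% of members.

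The cells with effector genes differed from the other 465 members in genes that did not choose them, given here as a description over cells. Ccr7 was detected in 1 of 27 (3.70%) against 36.6% of the other members. Lgals1, a galectin of activated T cells, was detected in 96.3% against 35.1%, and Itga4, an integrin chain used to enter inflamed tissue, in 96.3% against 38.9%. Their counts of Ccl5 were high, with a median of 38 molecules per cell against 7. Natural killer and effector genes followed: Klrk1, the activating receptor NKG2D, in 48.1% against 8.17%, Gzmk (granzyme K) in 37.0% against 1.29%, and Prdm1, a factor of effector differentiation, in 33.3% against 3.44%. Memory genes went the other way. Ly6c2 was detected in 44.4% against 92.5%, Il7r in 33.3% against 87.7%, Tcf7, which encodes the factor TCF1 of self-renewing T cells, in 59.3% against 93.1%, and Satb1, a chromatin organiser of naive T cells, in 7.41% against 83.2%. Klra7 was detected in none of the 27 cells. Over all pools, the cells with effector genes had a median of 2884 molecules against 3630, and their mitochondrial share was 7.16% against 10.3%. Their depth differed by pool, with a median of 2423 molecules in saline, 7472.5 at 4 h and 2593 at 8 h. At 4 h they were thus deeper than all members of that pool, whose median was 3656.5.

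By pool, cells with effector genes were 4 of 148 saline members (2.70%, 0.741 to 6.78), 6 of 170 members at 4 h (3.53%, 1.31 to 7.52) and 17 of 174 members at 8 h (9.77%, 5.80 to 15.2). The ratio of shares for 8 h over saline was 3.61 (1.18 to 14.8), that for 4 h over saline 1.31 (0.310 to 6.29), and that for 8 h over 4 h 2.77 (1.04 to 8.57). The 8 h pool was the highest, and the saline and 4 h intervals overlapped widely. Since the 6 genes were taken up after their values by pool were seen, these intervals describe the counts and do not stand as a check. Whether the 17 cells came from 1, 2 or 3 mice cannot be told apart.

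Other criteria built on the same genes and cells gave these counts, which are no independent check. At least 3 of the 6 genes were found in 2 saline, 2 4 h and 15 8 h members. With every cell thinned to 1000 molecules, and members chosen again on the thinned counts, cells with effector genes were 3 of 52 in saline, 2 of 68 at 4 h and 11 of 67 at 8 h. With likely doublets left out they were 3 of 140, 1 of 137 and 12 of 149, and with the cells with cycle genes left out 3 of 146, 2 of 164 and 12 of 167, so the 4 h share lay below the saline share in these settings. Among T cells that held Ccl5 but no Cd8b1, the shares of cells with at least 2 of the genes were 3.95% in saline, 3.13% at 4 h and 5.08% at 8 h.

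**Figure D3:**
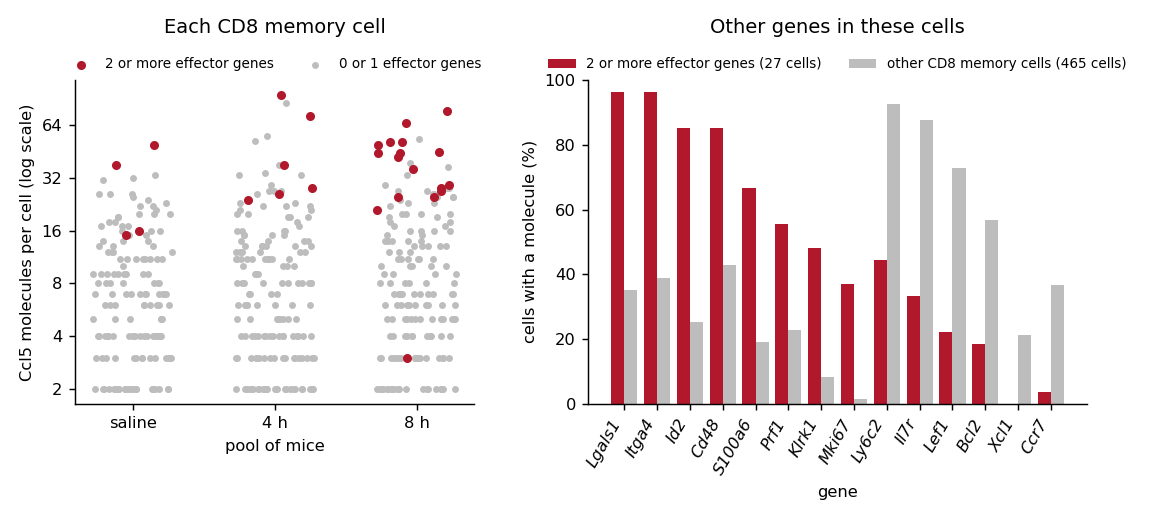
Left, Ccl5 molecules per cell (y axis, log scale) for each member in the saline, 4 h and 8 h pools, one point a cell, with red points for cells with at least 2 of the 6 effector genes (4, 6 and 17 cells), most of them high in Ccl5. Right, percent of cells with a molecule of each gene in the 27 cells with effector genes (red) and the other 465 members (grey), where Il7r was detected in 33.3% against 87.7%.

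The levels of the 6 genes in all members are given next, and since the genes were chosen with these values known they add no support to the counts of cells. Gzma had 75 molecules in saline, 116 in 4 h and 232 in 8 h members, in 2.70%, 4.12% and 6.90% of cells, a ratio of 2.70 (2.07 to 3.55) for 8 h over saline. Gzmb, whose product enters target cells through perforin and starts their death, had 15, 10 and 66 molecules, a ratio of 3.83 (2.16 to 7.23). Cx3cr1 had 8, 12 and 38 molecules, in 2.03%, 1.76% and 9.20% of cells. Klrg1 had 2, 1 and 24 molecules, S1pr5 2, 7 and 19, and Zeb2 8, 6 and 17. With the 15 cells with cycle genes left out, Gzma had 12, 28 and 67 molecules and a ratio of 5.03 (2.70 to 10.2) for 8 h over saline, and Gzmb had 3, 2 and 35 molecules and a ratio of 10.5 (3.31 to 53.4).

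Ccl5 itself stood at 2492 CPM in saline, 2920 in 4 h and 3442 in 8 h members. The ratio was 1.17 (1.09 to 1.26) for 4 h over saline and 1.38 (1.29 to 1.48) for 8 h over saline. Without the cells with effector genes the levels were 2351, 2672 and 2616 CPM, and the 8 h ratio with the cells with cycle genes also left out was 1.12 (1.03 to 1.20). The median count per cell was 7, 7.5 and 7. The rule set a minimum on Ccl5, so its level is a description.

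A second small set held cell cycle genes. At least 3 of 12 cycle genes, among them Mki67, Top2a and Birc5, were found in 2 saline members (1.35%), 6 members at 4 h (3.53%) and 7 members at 8 h (4.02%). The ratio of shares was 2.61 (0.467 to 26.5) for 4 h over saline and 2.98 (0.567 to 29.4) for 8 h over saline, so the counts could not separate the pools. In CD8 T cells without Ccl5 the same criterion was met by 0.631% in saline, 0.542% at 4 h and 0.518% at 8 h. Of the 15 cells, 10 also belonged to the cells with effector genes. The 15 held 803 of 899 molecules of the 12 genes (89.3%), in large part because they were chosen on these genes. The median depth of the 15 cells was 6672 molecules, above that of the other members.

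Taken over 26 gene lists, the cell cycle list had the highest median in members, with a log2 ratio of 0.85 for 4 h and 1.13 for 8 h over saline. Across all genes with at least 30 molecules in the pools compared, 7.6% were past 1.5-fold higher and 5.49% past 1.5-fold lower at 4 h than in saline. For 8 h over saline these background shares were 6.68% and 6.59%, and for 8 h over 4 h they were 5.72% and 6.97%. The median over all genes was 0.01 and -0.01 on the log2 scale. Of the cell cycle list, 7 of 11 measured genes were past 1.5-fold higher at 4 h and 7 of 12 at 8 h, with 1 lower at 8 h. Without the 15 cells with cycle genes the medians were -0.07 at 4 h and -0.03 at 8 h over saline, from 5 measured genes, and without likely doublets they were 0.01 and 0.12.

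Of the list of S100 and annexin genes with Ahnak, Lgals1, Vim and Crip1, 4 of 12 measured genes were past 1.5-fold higher at 8 h than in saline, and 1 of 11 at 4 h, a share near the background. These genes encode calcium-binding, membrane-organising and cytoskeletal proteins that T cells acquire with antigen experience. Crip1 had 178 molecules in saline, 270 in 4 h and 317 in 8 h members. Its ratio was 1.25 (1.03 to 1.52) for 4 h and 1.55 (1.29 to 1.87) for 8 h over saline, against 0.917 and 1.01 in CD8 T cells without Ccl5. Ahnak, a scaffold protein of the cell membrane, had 182, 302 and 306 molecules, a ratio of 1.46 (1.22 to 1.77) at 8 h. Its 8 h ratio in CD8 T cells without Ccl5 was 1.33, with an interval above 1. The higher Ahnak level at 8 h was thus not particular to the members. Vim, which encodes the filament protein vimentin, had 212, 322 and 334 molecules, a ratio of 1.37 (1.15 to 1.64) at 8 h. The median of the list was 0.33 at 4 h and 0.50 at 8 h over saline, and none was past 1.5-fold lower. In CD8 T cells without Ccl5 the medians were -0.01 and 0.04.

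The cells with effector or cycle genes held part of that difference. With both left out, the 8 h ratio of Lgals1 was 1.02, against 1.98 in all members, and that of S100a6 was 1.14 against 1.43. Crip1 stood at 1.43 against 1.55, Ahnak at 1.36 against 1.46 and Vim at 1.39 against 1.37. The list median at 8 h was 0.26 without the cells with effector genes. So Crip1, Ahnak and Vim were higher at 8 h among the other members as well, while Lgals1 stood near 1. At 4 h over saline and outside the same cells, Ahnak stood at 1.43 (1.17 to 1.75), Crip1 at 1.19 (0.963 to 1.47), Vim at 1.13 (0.925 to 1.38), Lgals1 at 0.956 and S100a6 at 0.600 (0.391 to 0.911), which is lower than in saline. Without the cells with cycle genes the list median at 4 h was 0.12. With likely doublets left out, the list median was 0.14 at 4 h and 0.47 at 8 h over saline.

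**Figure D4:**
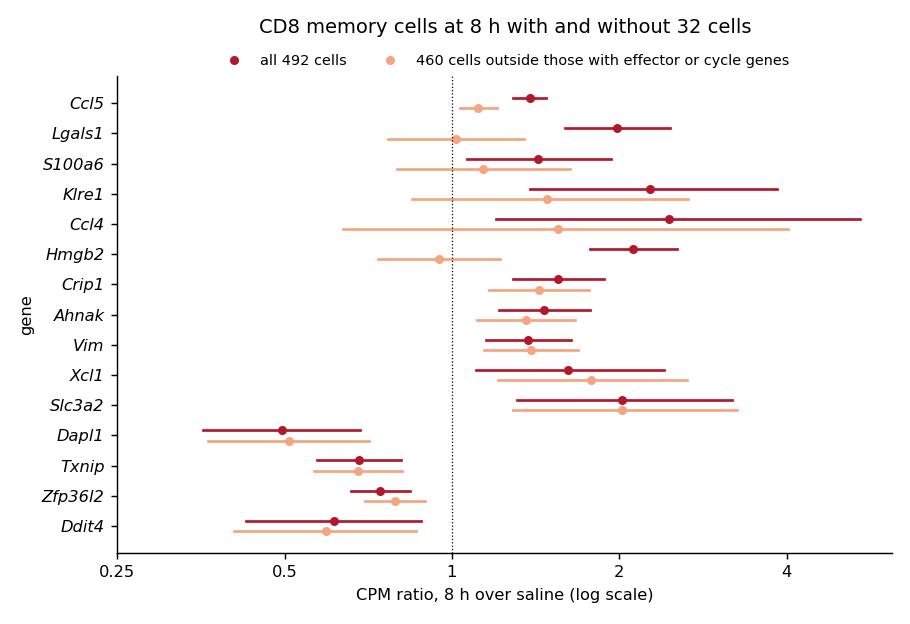
CPM ratio of 8 h over saline (x axis, log scale) for named genes (rows) in all 492 members and in the 460 members outside the cells with effector or cycle genes, with 95% counting intervals. Lgals1 stood at 1.98 in all members and 1.02 outside these cells, while Crip1, Ahnak and Vim kept ratios of 1.36 to 1.43.

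Several genes that glucocorticoids are known to raise in lymphocytes were lower at 4 h than in saline. Txnip, which binds thioredoxin and limits glucose uptake, had 301 molecules in saline, 225 in 4 h and 235 in 8 h members, in 80.4%, 67.1% and 71.3% of cells. Its ratio was 0.618 (0.517 to 0.737) for 4 h and 0.680 (0.571 to 0.809) for 8 h over saline. Zfp36l2, an RNA-binding protein that speeds transcript decay, had 575, 520 and 491 molecules, with ratios of 0.747 (0.662 to 0.843) and 0.744 (0.658 to 0.841). Both genes were lower in both remimazolam pools than in saline. Cxcr4, the bone marrow homing receptor, had 72, 42 and 63 molecules, and its ratio at 4 h was 0.482 (0.321 to 0.715). Ddit4, an inhibitor of the growth kinase mTORC1, had 78, 75 and 55 molecules, with a ratio of 0.614 (0.427 to 0.879) at 8 h. Tsc22d3, a leucine zipper protein that glucocorticoids raise in T cells, had 43, 37 and 50 molecules, and its intervals included 1 at both times.

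Of 13 measured genes on that list, none was past 1.5-fold higher at 4 h or 8 h, while 3 were lower at 4 h and 1 at 8 h. Among all genes 5.49% were lower at 4 h and 6.59% at 8 h, so the 8 h count was near that share. The median of the list was -0.28 at 4 h and -0.20 at 8 h over saline. CD8 T cells without Ccl5 showed medians of -0.22 and -0.16, so the members did not stand alone in this. Their ratio at 4 h was 0.855 for Txnip, 0.773 for Zfp36l2 and 0.855 for Cxcr4. Without the cells with effector genes the median in members was -0.22 at 4 h and -0.14 at 8 h, and without likely doublets it was -0.12 and -0.09.

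**Figure D5:**
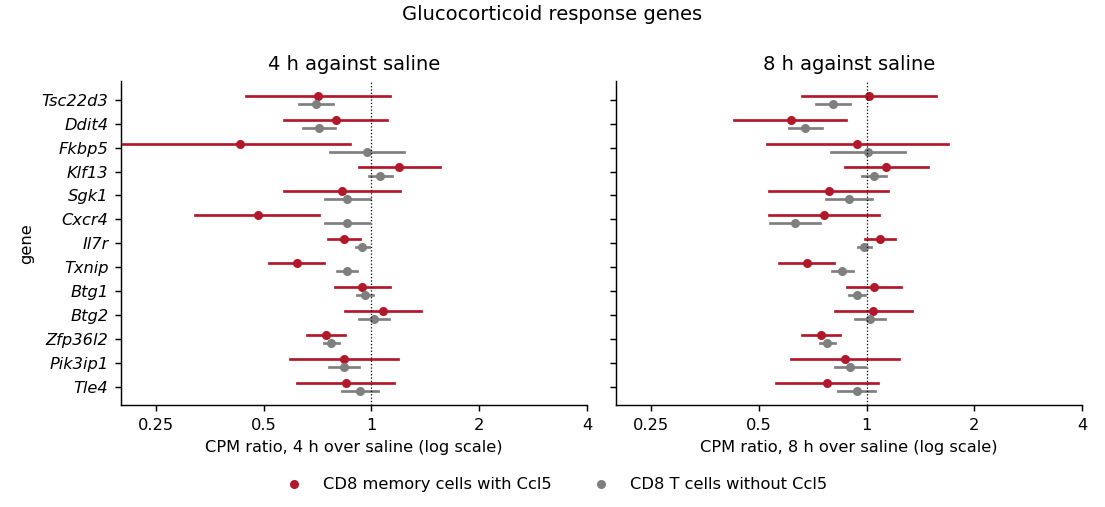
CPM ratio over saline (log axis) of glucocorticoid-response genes at 4 h and 8 h, in members and in CD8 T cells without Ccl5, with 95% counting intervals, one panel a time and one row a gene. Txnip stood at 0.618 at 4 h in members and 0.855 in CD8 T cells without Ccl5, and Zfp36l2 was lower in both populations at both times.

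The marker genes of members stayed within 1.5-fold between pools. Ly6c2 had 1392 molecules in saline, 1394 in 4 h and 1504 in 8 h members, a ratio of 0.827 (0.767 to 0.893) for 4 h over saline. Il2rb was detected in 89.2%, 88.2% and 88.5% of cells. Eomes was detected in 45.3%, 44.1% and 52.3% of cells, a CPM ratio of 1.21 (0.966 to 1.51) for 8 h over saline. Il7r, a glucocorticoid-response gene as well, had a ratio of 0.839 (0.757 to 0.929) at 4 h and 1.09 (0.989 to 1.20) at 8 h. Dapl1, a gene of naive and central memory CD8 T cells, had 109, 111 and 62 molecules, a ratio of 0.496 (0.357 to 0.683) at 8 h against 0.991 in CD8 T cells without Ccl5. That ratio was 0.51 outside the cells with effector or cycle genes.

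Among cytotoxic granule genes, 2 of 10 were past 1.5-fold higher at 4 h and 3 of 11 at 8 h, with none lower. Those at 8 h were Gzma and Gzmb, which helped to choose the cells with effector genes, and Serpinb6b. Nkg7, a granule membrane protein needed for degranulation, was detected in 88.5% of saline, 90.6% of 4 h and 91.4% of 8 h members. Its ratio at 8 h was 1.16 (1.02 to 1.32). Prf1 (perforin) had 42, 60 and 50 molecules, with ratios whose intervals included 1. Serpinb6b, a protease inhibitor of lymphocytes, had 26, 70 and 50 molecules, and its ratio at 4 h was 2.22 (1.40 to 3.64), against 1.06 in CD8 T cells without Ccl5. Outside the cells with effector or cycle genes its ratio was 1.99 at 4 h, and at 8 h it was 0.933 (0.507 to 1.72), against 1.68 in all members.

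Natural killer receptors had a median of 0.39 at 4 h and 0.21 at 8 h over saline, with none of 11 past 1.5-fold at 4 h and 3 of 10 higher at 8 h. Klre1 had 23 molecules in saline, 37 in 4 h and 60 in 8 h members, a ratio of 2.27 (1.38 to 3.85) at 8 h, and 1.48 (0.85 to 2.66) outside the cells with effector or cycle genes. Klrd1, the CD94 partner chain of NKG2 receptors, had 262, 320 and 298 molecules, a ratio of 0.991 (0.837 to 1.17) at 8 h. Without the cells with effector genes the list median at 8 h was -0.01. With Cd8a or Cd8b1 accepted the medians were -0.10 at 4 h and -0.02 at 8 h, so the direction turned, and with a minimum of 60 molecules the 4 h median was 0.04.

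Among chemokines and cytokines, 2 of 6 measured genes were past 1.5-fold higher at 8 h. Xcl1, a chemokine that draws cross-presenting dendritic cells, had 43 molecules in saline, 46 in 4 h and 80 in 8 h members, a ratio of 1.62 (1.11 to 2.41) at 8 h. It was found in none of the cells with effector genes, and its ratio outside the cells with effector or cycle genes was 1.78. Ccl4, an inflammatory chemokine, had 11, 6 and 31 molecules, a ratio of 2.46 (1.20 to 5.41) at 8 h, and 1.55 (0.637 to 4.03) outside the cells with effector or cycle genes. Ifng had 5 molecules in all members, so interferon gamma could not be compared.

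Interferon-response genes had medians of -0.12 at 4 h and -0.09 at 8 h. At 4 h, 2 of 32 were past 1.5-fold higher and 4 lower, against 7.6% and 5.49% of all genes. Signalling genes below the T cell receptor stood at a median of -0.01 at 8 h, with none of 25 past 1.5-fold at 4 h and 1 at 8 h. Cd5, which dampens that signal and was also a sort antigen in one of the labels' descriptions, had 97, 76 and 85 molecules, with a ratio of 0.65 at 4 h. Bcl2, the survival factor, had 139, 195 and 209 molecules, a ratio of 1.31 at 8 h. Bbc3, which encodes the death factor PUMA, had 19, 45 and 26 molecules, a ratio of 1.96 at 4 h.

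The list of GABA and benzodiazepine binding genes had 5 measured members, with medians of 0.18 at 4 h and 0.13 at 8 h over saline. At 4 h 1 was past 1.5-fold lower and none higher, and at 8 h none was past 1.5-fold. Tspo, the mitochondrial benzodiazepine-binding protein, had 43 molecules in saline, 60 in 4 h and 71 in 8 h members, with ratios of 1.15 (0.767 to 1.75) at 4 h and 1.44 (0.971 to 2.15) at 8 h. Gabbr1, a subunit of the metabotropic GABA receptor, had 26, 20 and 22 molecules, with ratios of 0.636 (0.336 to 1.18) and 0.737 (0.398 to 1.35). Gabarapl2, an autophagy protein of the GABA receptor-associated family, had 78, 127 and 98 molecules, a ratio of 1.35 (1.01 to 1.81) at 4 h and 1.10 (0.805 to 1.49) at 8 h.

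The genes with the firmest single ratios were mostly of low count. At 4 h over saline the highest were Ccdc127 at 4.30 and Kbtbd4 at 4.13, with Serpinb6b, Cdca7l, Shoc2 and Zbtb25 after them, and the lowest included Swt1 at 0.349, Cxcr4, Txnip and Arid4a at 0.574. Arid4a, a chromatin regulator, had 131 molecules in saline and 91 in 4 h members. At 8 h over saline the highest were Plekhg3 at 5.66, Zcchc10 and Pts, and among them Slc3a2, the CD98 heavy chain of amino acid transporters, had 31 molecules in saline, 55 in 4 h and 72 in 8 h members. Its ratio of 2.02 was 2.03 outside the cells with effector or cycle genes. The lowest were Dot1l at 0.389, Slc6a6, Dapl1 and Mpc1, and Dnajc15, a mitochondrial co-chaperone, stood at 0.635. For 8 h over 4 h, Atp2b1, a calcium pump of the plasma membrane, had 183 against 97 molecules, a ratio of 1.99 (1.55 to 2.57), and 1.05 in CD8 T cells without Ccl5. Fam111a, a protease of replicating cells, had 57 against 115 molecules, a ratio of 0.523 (0.374 to 0.724). No gene was tested, and picking the firmest of so many genes favours those with large counting error.

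The other 17 lists had medians between -0.24 (early activation) and 0.27 (costimulators) at 4 h, and between -0.16 (chemokine receptors) and 0.51 (sterol synthesis) at 8 h over saline. Sterol synthesis rested on 6 measured genes, with 2 past 1.5-fold higher and 1 lower at 4 h and 2 higher at 8 h. Naive and homing genes had medians of -0.12 and -0.08. None of 17 was past 1.5-fold at 4 h and 1 was lower at 8 h, near the 6.59% of all genes. Cytokine receptors had medians of 0.03 and -0.02, with 1 of 15 higher at 4 h, near the 7.6% of all genes. That gene was Il18rap, with 47 molecules in saline, 86 in 4 h and 79 in 8 h members. Ikzf2, which encodes the factor Helios, had 28, 64 and 54 molecules, with ratios of 1.89 (1.19 to 3.06) at 4 h and 1.68 (1.05 to 2.76) at 8 h over saline. Ribosomal protein genes had medians of 0.01 and -0.01.

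Markers of several other cell types were found in members and were not even across the pools. At least 1 molecule of the B cell list was found in 73.6% of saline, 70.0% of 4 h and 64.9% of 8 h members. For the myeloid list the shares were 35.8%, 41.8% and 37.9%, and for the natural killer T list 43.2%, 37.6% and 32.8%. Summed over the B cell list, members held 469 CPM in saline, 388 at 4 h and 385 at 8 h, most of it Ighm with 224, 214 and 203 molecules, and Cd79a and Ms4a1 were at 0 in the saline pool. Cd79b, the B cell receptor beta chain, was found in 0.7%, 8.2% and 4.6% of members. The natural killer cell list summed to 99.3 CPM in saline, 130 at 4 h and 69.2 at 8 h, with Ncr1 at 0 in all pools. The myeloid list summed to 126, 195 and 162 CPM, with Csf1r, C1qa, C1qb and Adgre1 at 0. The natural killer T list summed to 199, 177 and 151 CPM, with Zbtb16 at 0 in both remimazolam pools, the gamma delta list to 121, 170 and 94.3 CPM with Trdc at 0 by the rule, and the CD4 and regulatory T cell list to 256, 225 and 231 CPM. The plasma cell list summed to 74.0, 47.7 and 58.2 CPM, and red cell and platelet genes were at 0. The part of these RNAs in the ratios above was not tested beyond the values given without likely doublets.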

How the data were processed

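Whole transcriptome and sample tag libraries were sequenced together, and the deposited counts are whole molecules per gene and cell, corrected for sequencing errors by the authors with the BD Rhapsody WTA analysis pipeline 1.9.1 on GRCm38 with GENCODE M19, per the file headers. Cells were grouped by the deposited tag calls, and tag multiplets and untagged cells were left out. Cells with at least 200 genes, under 25% mitochondrial molecules and at least 1 Cd3d, Cd3e or Cd3g molecule were kept, and no doublet caller was run. As an alternative, cells with B cell or myeloid marker molecules or in the top 3% of molecules were left out.

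Molecules were summed per pool and divided by the total of those cells (CPM). With 1 pool per treatment no test was made. Exact intervals were computed with scipy 1.17.1 on Python 3.11.15 and checked on simulated counts with independent molecules. That check does not cover genes whose molecules gather in few cells, such as Gzma, where the intervals can be too narrow. TMM factors came from edgeR 4.0.16. Genes needed 30 molecules over the pools compared, and called means past 1.5-fold. For list medians, a pool with 0 molecules of a gene was set to a floor of 3 molecules. Counts past 1.5-fold used the ratio without that floor, so such genes counted as past 1.5-fold. Named genes were the 10 with the firmest interval bound in each direction, leaving out genes with over 10% of molecules in 1 cell. The members, lists and alternatives were chosen with earlier results of these data known, and the sets with effector and cycle genes after values were seen. Some genes are not reported here.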

Additional observations from a re-analysis of the deposited data

How the results depend on the processing

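No paired analysis was possible because each treatment is 1 pool with no replicate, and for the same reason no replicate could be left out. Settings changed one at a time were TMM factors, the total, the minimum, the Ccl5 and CD8 limits, the cell filters, doublets and equal weight per cell. Of the alternative values, 1804 of 1860 gene ratios, 916 of 936 list medians and 56 of 57 shares stayed within the spread or interval of the reported value.
With no minimum and a prior of 0.5 molecules, 2413 genes were past 1.5-fold higher and 2024 lower at 4 h than in saline, 2328 and 2207 at 8 h than in saline, and 2104 and 2376 at 8 h than at 4 h. With a minimum of 60 molecules these counts were 137 and 100, 102 and 102, and 100 and 101.
With likely doublets left out, the ratio of shares of cells with effector genes for 8 h over 4 h was 11.03. The same setting gave list medians over saline of 0.0145 for cell cycle, 0.0657 for NF-kB, 0.000322 for glycolysis and -0.19 for heat shock at 4 h, and 0.13 for cytokine receptors at 8 h. For 8 h over 4 h it gave 0.41 for GABA and benzodiazepine genes, 0.14 for heat shock and 0.0916 for glycolysis. It turned the ratio of Lgals1 at 4 h over saline to 0.976 and that of Ly6c2 at 8 h over 4 h to 0.991.
Without cells with cycle genes, the cell cycle median at 4 h was -0.0709, glycolysis -0.0338 and heat shock 0.13 for 8 h over 4 h, and the Hmgb2 ratio over saline turned to 0.952 at 4 h and 0.983 at 8 h. Without cells with effector genes, the S100 list stood at 0.26 at 8 h over saline, integrins at 0.0179 and the Ccl5 ratio at 0.979 for 8 h over 4 h. With a Ccl5 minimum of 1 molecule, heat shock stood at 0.14 for 8 h over saline, and for 8 h over 4 h at 0.25, with integrins at -0.0103, glycolysis at 0.0351 and MHC class I at 0.00393. With cells weighted equally, glycolysis stood at 0.00657 for 4 h over saline and 0.0149 for 8 h over 4 h. The cause of these shifts was not tested.
The number of cells limits the rest: a count of 4 cells with effector genes in saline carries a wide interval, and genes under 30 molecules could not be compared.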

Other observations

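T cell receptor beta segments were seen in few members, as the libraries do not target them. Exactly 1 Trbv segment was detected in 85 of 492 members, spread over 18 segments, with Trbv12-1 the most frequent at 11 cells. Among CD8 T cells without Ccl5, 888 of 4789 cells had exactly 1 segment, over 23 segments, with Trbv2 the most frequent at 118 cells. Of the 27 cells with effector genes 4 had a segment, each a different one, so a shared clone could not be looked for.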
